A study of Homo sapiens with 2 samples.

Results

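KRT14-high cells were the cells of doxorubicin-resistant SUM159 cells, grown attached, that carried 5 or more KRT14 molecules. SUM159 is an established line of triple-negative breast cancer, that is, of breast cancer without the estrogen and progesterone receptors and without amplified HER2. Molecules were counted as unique molecular identifiers (UMIs), so that each original transcript counts once. The cut was met by 166 of 7032 doxorubicin-resistant attached cells, 18233 attached cells and 30122 cells in all. Every KRT14 value below describes how the cells were chosen and is not a result.

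A breast cancer gene panel was measured in single cells of 6 populations. Attached cells and cells of 3-dimensional spheroids formed 2 samples, each loaded on a cartridge of its own, and each sample pooled 3 populations with separate tags: doxorubicin-resistant, paclitaxel-resistant and untreated (treatment-naïve) cells. The labels give the genotype of all as wild type, and resistance was raised in attached cells by long-term exposure to increasing doses. The files hold 8452574 to 29451390 UMIs per population and 18233 attached cell barcodes, beside about 15000 attached cells pooled per the labels. No population was replicated, so differences were not tested. The ranges given in parentheses are 95% limits that cover counting error alone and say nothing about another culture or another selection, and a resistant population is 1 selected line.

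Keratin 14 is an intermediate filament protein of the basal layer of stratified epithelia and of the myoepithelial cells of the breast, where it pairs with keratin 5. Basal-like breast tumours carry these keratins together with P-cadherin and p63-family genes, and a line such as SUM159 holds cells along a range from epithelial-like to mesenchymal states. Doxorubicin damages DNA through topoisomerase II and is exported by the P-glycoprotein pump, encoded by ABCB1.

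KRT14 (chromosome 17, 41582279 to 41586895 on GRCh38) was rare and unevenly spread in doxorubicin-resistant attached cells. No KRT14 UMI was found in 6219 cells, 1 in 530 cells, and 2, 3 or 4 in 78, 26 and 13 cells. Just inside the cut lay 12 cells with 5 UMIs, 2 cells with 6 and 10 cells with 7. Within the KRT14-high cells the count per cell had a lowest value of 5, a median of 19 and a highest of 521, and these cells held 5638 of the 6454 KRT14 UMIs of the population (87.4%).

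The share of KRT14-high cells was 2.36% (2.02 to 2.74) in doxorubicin-resistant attached cells. It was 37.2% (35.9 to 38.5) in treatment-naïve attached cells and 0.271% (0.155 to 0.440) in paclitaxel-resistant attached cells. In spheroids it was 0.609% (0.387 to 0.913) of doxorubicin-resistant cells, 12.2% (11.2 to 13.2) of treatment-naïve cells and 0.213% (0.0921 to 0.420) of paclitaxel-resistant cells. The median KRT14 count of a KRT14-high cell was 19 in the doxorubicin-resistant, 20 in the treatment-naïve and 7 in the paclitaxel-resistant attached cells, and 7, 20 and 7.5 in the doxorubicin-resistant, treatment-naïve and paclitaxel-resistant spheroid cells.

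A cut in UMIs depends on depth, and the populations differed in it. The median UMI count per cell was 3814, 3653 and 3710 in doxorubicin-resistant, paclitaxel-resistant and treatment-naïve attached cells and 2340, 1629 and 1538.5 in the spheroid cells. With every cell thinned to 1000 UMIs and shallower cells left out (0 of the doxorubicin-resistant attached cells), the shares became 1.05% (0.827 to 1.32), 0.0679% (0.0185 to 0.174) and 20.1% (19.1 to 21.2) in the attached populations and 0.313% (0.135 to 0.615), 0.0462% (0.00117 to 0.257) and 11.9% (10.6 to 13.2) in the spheroids. The order of the 6 shares stayed the same, though the intervals of the paclitaxel-resistant populations overlapped. At least 1 KRT14 UMI was carried by 11.6% (10.8 to 12.3) of doxorubicin-resistant attached cells and by 8.75% (8.04 to 9.50) of paclitaxel-resistant ones, which is a much smaller gap than at the cut of 5.

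**Figure D1:**
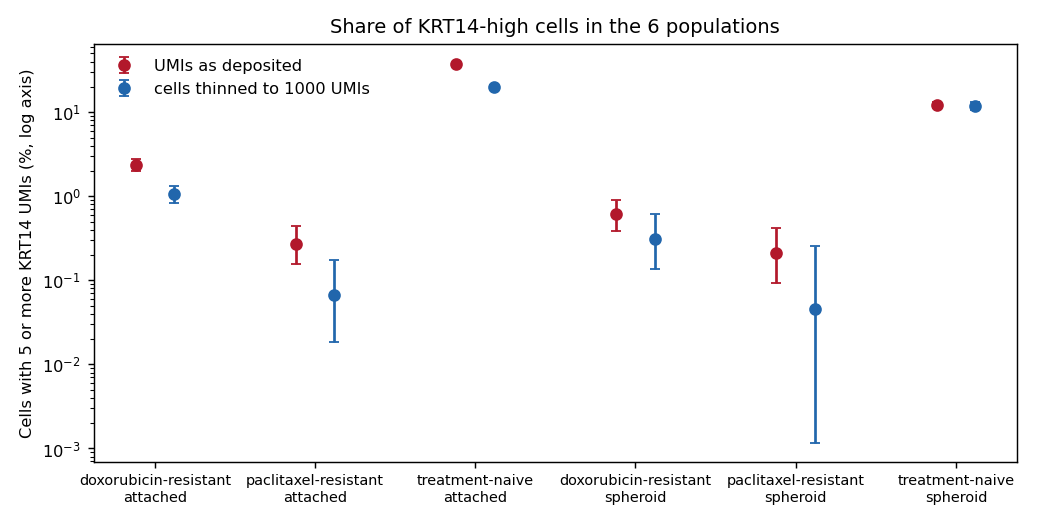
Share of cells with 5 or more KRT14 UMIs (percent, log axis) in each of the 6 populations, as deposited (red) and with each cell thinned to 1000 UMIs (blue), with exact 95% binomial intervals. Doxorubicin-resistant attached cells (2.36%) lie between the treatment-naïve (37.2%) and the paclitaxel-resistant attached cells (0.271%).

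KRT14-high cells were somewhat deeper than the rest. Their UMIs per cell had a lowest value of 1172, a median of 5020.5 and a highest of 12780, against 1044, 3787.5 and 21909 in the other 6866 cells, and the ranges overlapped almost wholly. The median number of panel genes seen per cell was 149.5 against 141. Of the KRT14-high cells, 23 (13.9%) were among the 5% of cells with the most UMIs. No doublet caller was run, and the part of cell pairs caught together in the results was not tested. Of the barcodes of the doxorubicin-resistant attached cells, 106 also occurred in a spheroid population, 4 of them in KRT14-high cells, and none was shared between attached populations.

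To compare KRT14-high with the other cells, the UMIs of each gene were summed over the cells of each group and scaled to counts per 1000000 UMIs (CPM) without KRT14. A gene was called higher or lower at a fold of 2 or more, provided that at least 50 UMIs were observed in the KRT14-high cells or would be there at the CPM of the other cells. Of 330 listed genes 193 met this minimum, 18 (9.33%) were higher and 23 (11.9%) were lower, and the median log2 fold of all 193 was -0.09. Since KRT14 chose the cells of this same contrast, the genes below describe them. A gene expected at fewer than 50 UMIs could meet the minimum only if it was above 1-fold. Among the 18 higher genes, CDH3, STAT4 and LPCAT1, expected at 24.5, 44.8 and 34.5 UMIs, met it in this way. With the 5 most abundant genes (among them GAPDH, VIM, LGALS1 and FN1) left out of the totals, the median log2 fold was -0.27, 11 genes were higher and 30 lower, and the higher share of all calls was 26.8% in place of 43.9%.

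**Figure D2:**
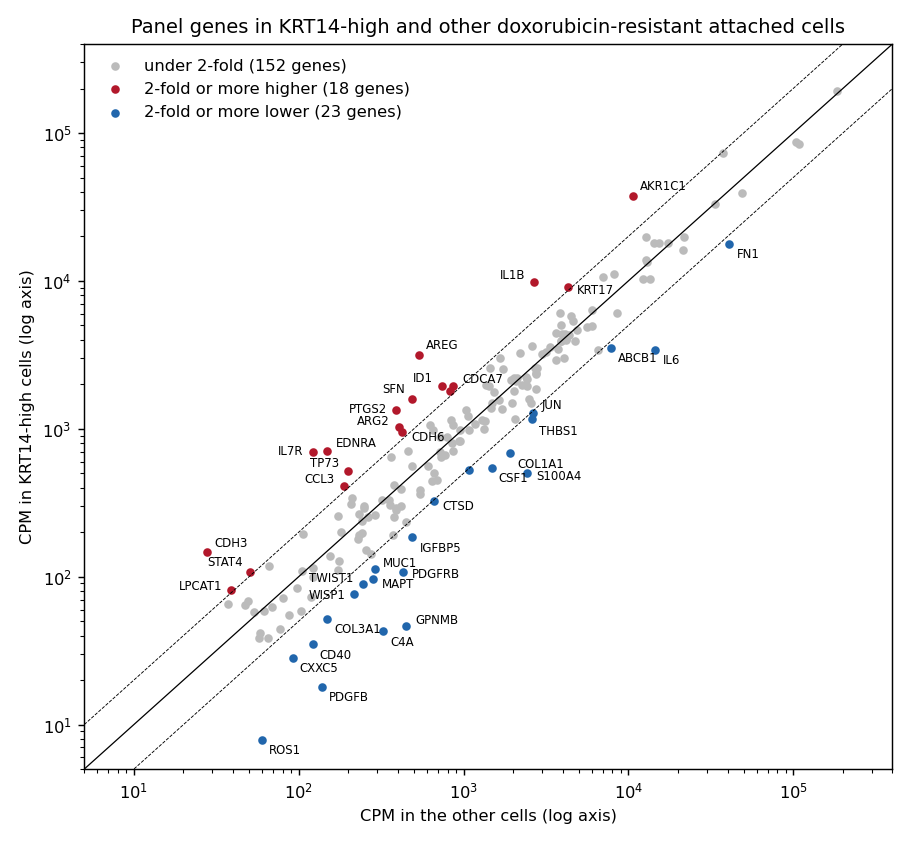
CPM of each of 193 measured panel genes in the other cells (horizontal) and in the KRT14-high cells (vertical), both on log axes, with equality as a solid line and 2-fold differences as broken lines. The 18 higher genes (red) reach from AKR1C1, at 37778 CPM, down to LPCAT1, at 81.2 CPM.

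Basal epithelial genes were among the clearest differences. The 3 other genes by which the group is known, CDH3, AREG and AKR1C1, were all higher in it. They were chosen with earlier results of these data known, so this only describes the group. CDH3 (chromosome 16, 68645310 to 68733771) encodes P-cadherin, an adhesion molecule of basal epithelium. It had 0 to 6 UMIs per KRT14-high cell with a median of 0, and 0 to 17 with a median of 0 in the other cells. At least 1 CDH3 UMI was seen in 68 of 166 KRT14-high cells (41.0%, 33.4 to 48.9) and in 456 of the others (6.64%, 6.06 to 7.26), and the CPM was 147 against 27.7, a fold of 5.30 (4.37 to 6.38). With 1000 UMIs per cell, 13.9% of the KRT14-high and 2.46% of the other cells had any CDH3 UMI. Whether the zeros of many KRT14-high cells are missed transcripts or true absence was not tested.

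SFN, which encodes 14-3-3 sigma, an epithelial adaptor protein, had a median of 5 UMIs (0 to 163) per KRT14-high cell and of 1 (0 to 48) per other cell, and a fold of 3.29 (3.12 to 3.48), with 11.5% of its KRT14-high UMIs in 1 cell. TP73, a p53 homologue, had a median of 2 (0 to 14) against 0 (0 to 20) and a fold of 2.59 (2.35 to 2.85). KRT17, a keratin of basal and activated epithelium, was found in every KRT14-high cell, with 8 to 479 UMIs and a median of 36, against 0 to 118 and a median of 16, and its fold was 2.11 (2.07 to 2.16). The lowest KRT14-high cells thus lay inside the range of the other cells for all 3 genes, and the medians differed. The highest values of SFN and KRT17, 163 and 479 UMIs, also lay above the 48 and 118 of the other cells. TP73 reached 14 against 20. KRT17 is a close relative of KRT14, and reads of close keratins may be split between them.

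In the basal list, 4 genes of the 7 measured were higher and 0 lower, with a median log2 fold of 1.08 beside -0.09 over all measured genes. The count and the median include CDH3, a marker of the group that met the minimum only through its KRT14-high UMIs. The integrin subunit gene ITGA6, at 2998 against 1653 CPM, stayed under 2-fold at 1.81 (1.74 to 1.89). EGFR, the receptor for amphiregulin, was at 0.94-fold (0.87 to 1.01) and the basal transcription factor gene FOXC1 at 0.71-fold (0.64 to 0.79). KRT5, the usual partner of KRT14, had 8 UMIs in 6 of the 166 cells (3.61%, 1.34 to 7.70). In the others it had 23 UMIs in 19 cells (0.277%, 0.167 to 0.432), which gives a fold of 11.2 (4.33 to 26.0). These UMIs are too few for the minimum, and most KRT14-high cells had no KRT5 UMI. Left out of the totals, the 5 abundant genes bring KRT17 to 1.88-fold and the basal count to 3.

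Luminal genes did not separate the groups in the same way. None of the 10 measured was higher and 1 was lower, with a median log2 fold of -0.17. The keratins of simple epithelium, KRT18 and KRT8, were at 1.54-fold (1.52 to 1.56) and 1.29-fold (1.25 to 1.33), with KRT18 at 19723 against 12808 CPM. MUC1, a cell surface mucin, was 2.58-fold (2.12 to 3.18) lower, with at least 1 UMI in 33.1% against 58.2% of the cells. The surface glycoprotein gene CD24 was at 0.52-fold (0.50 to 0.54), with 3417 against 6545 CPM. It also belongs to the list of stem and surface state genes, of which 0 of 4 were called, with ALCAM at 0.92-fold (0.84 to 1.01) and CD44 at 0.76-fold (0.74 to 0.77), and CD24 was lower by the rule with the 5 abundant genes left out of the totals.

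AREG (chromosome 4, 74445136 to 74455005) encodes amphiregulin, a membrane-anchored ligand of the EGF receptor, and had the largest fold of all measured genes. A KRT14-high cell carried 0 to 173 AREG UMIs with a median of 6.5, another cell 0 to 204 with a median of 0. At least 1 was seen in 86.1% (79.9 to 91.0) against 30.3% (29.2 to 31.4) of cells, or in 66.3% (58.5 to 73.4) against 15.7% (14.9 to 16.6) at 1000 UMIs per cell. The CPM was 3174 (3058 to 3294) against 535 (526 to 543), a fold of 5.93 (5.70 to 6.18). The other measured members of the EGF family list were the receptors EGFR and ERBB2, the latter at 0.92-fold (0.86 to 0.98), so that the ligand differed at nearly even receptor levels.

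AKR1C1 (chromosome 10, 4963415 to 4983283), an aldo-keto reductase that reduces ketosteroids and carbonyl compounds, was among the most abundant transcripts of the KRT14-high cells. They carried 2 to 1370 UMIs with a median of 136, and the other cells 0 to 2683 with a median of 11. The gene was found in all 166 KRT14-high cells and in 97.2% of the others, so that it is its amount, 37778 against 10598 CPM and a fold of 3.56 (3.52 to 3.61), that marks the group. Close relatives of AKR1C1 were not listed, and whether reads of them were counted with it was not tested.

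Of the redox, steroid and drug metabolism list 3 of 9 members were higher and 0 lower, with a median log2 fold of 0.09. Beside AKR1C1 these were ARG2, the mitochondrial arginase, at 2.53-fold (2.37 to 2.71), and LPCAT1, an enzyme of phospholipid remodelling, at 2.09-fold (1.62 to 2.65) on 72 UMIs. LPCAT1 met the minimum only through its UMIs in the KRT14-high cells. LPCAT1 lay under the rule at a cut of 3 KRT14 UMIs, under depth weighting and with the 5 abundant genes out of the totals, which leaves 2 of 9. HPRT1, of purine salvage, and PHGDH, of serine synthesis, were at 0.80-fold (0.77 to 0.83) and 0.76-fold (0.72 to 0.81). The glutathione transferase gene GSTP1 was at 0.98-fold, so the list did not move as a whole.

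Upstream sequences of 3 of these genes are shown because these genes were higher in the KRT14-high cells and each window matches a search pattern. In the patterns N stands for any base. They are the 250 bases before the gene start on the plus strand, from RefSeq on GRCh38.p14, with the motif in capitals. The AREG window (chr4:74444886-74445135) holds the cAMP response element TGACGTCA, whose first base lies 65 bases before the start. The AKR1C1 window (chr10:4963165-4963414) holds a match to TGANNNNGC, a loose form of the antioxidant response element core, on the opposite strand, 41 bases before the start. The SFN window (chr1:26862899-26863148) holds a match to TGANTCA, a loose form of the AP-1 motif, 170 bases before the start. Strict forms of these 2 motifs were not searched. The strict AP-1 form has C or G at the N, where the SFN match has T. The strict antioxidant response element core has C at the first N, where the AKR1C1 match, read on the opposite strand, has G. Neither the AKR1C1 nor the SFN match is therefore a strict site of the named motif.
AREG: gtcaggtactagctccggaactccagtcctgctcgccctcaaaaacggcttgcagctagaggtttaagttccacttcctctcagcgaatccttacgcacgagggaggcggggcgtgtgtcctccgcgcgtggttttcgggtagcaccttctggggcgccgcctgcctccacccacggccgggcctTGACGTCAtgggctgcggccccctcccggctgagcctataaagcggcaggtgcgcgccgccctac
AKR1C1: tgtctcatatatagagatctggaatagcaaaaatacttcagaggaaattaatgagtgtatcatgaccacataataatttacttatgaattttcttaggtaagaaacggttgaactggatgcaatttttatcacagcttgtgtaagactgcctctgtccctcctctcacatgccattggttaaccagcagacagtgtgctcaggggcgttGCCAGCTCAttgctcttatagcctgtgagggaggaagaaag
SFN: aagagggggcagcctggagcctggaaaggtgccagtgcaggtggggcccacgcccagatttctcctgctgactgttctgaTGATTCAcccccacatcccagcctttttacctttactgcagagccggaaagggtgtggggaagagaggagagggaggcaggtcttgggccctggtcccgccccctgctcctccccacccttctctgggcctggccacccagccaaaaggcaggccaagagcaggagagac
Both strands were searched, and the motifs as spelled may overlap one another. Of the 18 higher genes 14 had an entry, as had 13 of the 23 lower and 140 of the 193 measured genes, and KRT14, KRT17 and CDH3 had none. TGANTCA was found for 2 of the 14 higher genes (SFN and STAT4), 2 of the 13 lower genes, 12.9% of the 140 and 8.06% of all 27305 genes with an entry. TGACGTCA was found for 2 higher genes (AREG and ARG2), 1 lower gene (FN1), 5% and 2.03%, and TGANNNNGC for 4 higher genes, 4 lower genes, 45.7% and 40.3%. These are matches of letters only.

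Cytokine and receptor genes of inflammation were split. IL1B, the gene of interleukin 1 beta, was found in 165 of the 166 KRT14-high cells, with 0 to 308 UMIs and a median of 36.5, against 0 to 483 and a median of 3, and a fold of 3.63 (3.55 to 3.71). PTGS2, the inducible cyclooxygenase of prostaglandin synthesis, had 0 to 82 UMIs with a median of 2, against 0 to 105 with a median of 0, and a fold of 3.47 (3.26 to 3.68). IL6, in contrast, had 0 to 229 UMIs with a median of 4 in KRT14-high cells, against 0 to 1253 with a median of 30, and was 4.23-fold (4.09 to 4.39) lower, at 3436 against 14550 CPM. CSF1, the macrophage colony-stimulating factor, was 2.71-fold (2.48 to 2.97) lower. Interleukin genes thus stood at both ends of the range within the same cells.

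The inflammatory list thus had 3 higher and 2 lower genes among its 13 measured members, with a median log2 fold of 0.45. The neutrophil chemokine gene CXCL8 stayed just under the rule at 1.96-fold (1.95 to 1.98) and passed it in some settings, and IL18 was at 1.79-fold (1.72 to 1.87). The third higher member, the chemokine gene CCL3, rests on few cells, since 9 of 166 (5.42%) had any and 1 cell held 49.3% of its UMIs. Its fold of 2.17 (1.95 to 2.42) ranged from 1.09 to 3.04 under other settings. IL7R, the interleukin 7 receptor chain, was at 698 against 122 CPM, a fold of 5.74 (5.26 to 6.26), with at least 1 UMI in 69.9% against 20.7% of cells and 16.0% of its UMIs in 1 cell. EDNRA, an endothelin receptor gene, had 0 to 15 UMIs with a median of 3 against 0 to 26 with a median of 0, and a fold of 4.78 (4.39 to 5.20), with no cell above 2.39% of its UMIs.

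Of the genes of interferon response and antigen presentation 0 of 7 were higher, with a median log2 fold of -0.66. The galectin gene LGALS9 was at 0.56-fold (0.42 to 0.74), IFNGR1, an interferon gamma receptor chain, at 1.58-fold (1.53 to 1.62), and the checkpoint ligand gene CD274 at 1.15-fold (1.01 to 1.31). HLA-DRA, of class II antigen presentation, was seen in 25 KRT14-high cells (15.1%, 9.99 to 21.4) against 6.66% (6.08 to 7.27) of the others, yet its CPM was 55.3 against 87.3, so that the share and the level pointed opposite ways and no order is read from them. CCL4 UMIs were confined to 2 KRT14-high cells, which held all 49. The costimulatory receptor gene CD40 was 3.47-fold (2.44 to 5.12) lower on 31 UMIs.

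Mesenchymal and matrix genes made up much of the lower side. Lower were 7 and higher 1 of the 22 measured, with a median log2 fold of -0.35. S100A4, a calcium-binding protein linked to motility, had 0 to 34 UMIs with a median of 1 in KRT14-high cells, against 0 to 580 with a median of 3, and was 4.84-fold (4.41 to 5.32) lower, at 504 against 2439 CPM. PDGFRB, a receptor of platelet-derived growth factor, was seen in 31.9% against 60.3% of cells and was 4.01-fold (3.27 to 4.96) lower. The collagen genes COL3A1 and COL1A1 were 2.87-fold (2.15 to 3.92) and 2.79-fold (2.58 to 3.03) lower, and TWIST1, a transcription factor of epithelial-mesenchymal transition, 2.74-fold (2.20 to 3.47). The matrix genes FN1, with 2 to 643 UMIs and a median of 72.5 against 1 to 1447 and a median of 139, and THBS1 were 2.30-fold (2.26 to 2.33) and 2.23-fold (2.10 to 2.38) lower.

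Other members of the list were even or higher. CDH6, a cadherin of mesenchymal and kidney cells, was 2.23-fold (2.08 to 2.39) higher, and at 1.98-fold with the 5 abundant genes left out of the totals. The smooth muscle actin gene ACTA2, which myoepithelial cells also carry, was at 1.53-fold (1.41 to 1.66) and seen in 92.8% against 68.4% of cells. SNAI2 was at 1.40-fold, VIM, the vimentin gene, at 0.78-fold (0.77 to 0.78), and every KRT14-high cell had FN1. Vimentin, at 84323 CPM, was thus an abundant transcript in the KRT14-high cells too.

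The largest fold downward was that of GPNMB, a transmembrane glycoprotein, which was seen in 12 of 166 KRT14-high cells (7.23%) against 39.3% of the others and was 9.73-fold (7.17 to 13.6) lower on 41 UMIs. PDGFB, a growth factor gene, was seen in 6.02% against 26.7% of cells and was 7.68-fold (4.72 to 13.4) lower on 16 UMIs. The complement gene C4A, in 12.0% against 41.5% of cells, was 7.57-fold (5.51 to 10.7) lower, and ROS1, a receptor tyrosine kinase gene, 7.54-fold (3.65 to 18.8) lower on 7 UMIs. C4A has a nearly identical copy, C4B, and their reads cannot be told apart here. Counts this small leave the order of these 4 genes undecided. The remaining genes called lower in the range of 2 to 4 were CXXC5 at 3.25-fold, MAPT at 2.95-fold, WISP1 at 2.82-fold, IGFBP5 at 2.65-fold, JUN at 2.06-fold and CTSD at 2.04-fold.

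ABCB1, the pump gene, was lower but not absent. KRT14-high cells carried 0 to 344 UMIs with a median of 9, and the other cells 0 to 1078 with a median of 12, and it was 2.21-fold (2.13 to 2.29) lower at 3543 against 7821 CPM. At least 1 UMI was seen in 151 KRT14-high cells (91.0%, 85.5 to 94.9) and in 88.4% (87.6 to 89.1) of the others. With every cell thinned to 1000 UMIs these shares were 69.3% (61.7 to 76.2) and 75.9% (74.8 to 76.9). ABCG2, another efflux pump gene, was at 0.75-fold (0.70 to 0.80), with 1001 against 1340 CPM, and was likewise seen in 151 KRT14-high cells. The drug efflux list thus had 0 of 2 members higher and 1 lower.

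Proliferation genes were nearly even. None of 17 measured G2/M genes was called, their folds lay from 0.87 to 1.36, and the median log2 fold was 0.09. CDC20, an activator of the anaphase-promoting complex, was at 1.36-fold (1.33 to 1.38) and the centromere histone gene CENPA at 1.30-fold (1.23 to 1.38), with CEP55 and ANLN, of cytokinesis, both at 0.87-fold. Of 14 G1/S genes 1 was higher and 0 lower, with a median of -0.07. That was CDCA7, a MYC- and E2F-responsive nuclear protein, at 2.25-fold (2.14 to 2.36), and at 1.99-fold with the 5 abundant genes left out of the totals. CCNE1 was at 1.15-fold (1.05 to 1.26), CCNE2 at 0.82-fold (0.70 to 0.95) and CCND1 at 0.71-fold (0.69 to 0.73), all of them cyclins of the G1 phase or its exit.

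Among p53 targets and apoptosis genes 0 of 7 were lower, with a median log2 fold of -0.08. The survival gene BCL2 was at 1.40-fold (1.06 to 1.81), its antagonist BCL2L11 at 0.89-fold (0.74 to 1.07) and MDM2 at 0.81-fold (0.65 to 1.00). In the list of insulin-like growth factor binding genes, IGFBP7 was at 1.29-fold (1.25 to 1.32), IGF1R at 0.65-fold (0.59 to 0.72) and IGFBP5 was the 1 lower member of 3. Also higher were ID1, an inhibitor of basic helix-loop-helix factors, at 2.65-fold (2.52 to 2.78), and STAT4, a signal transducer of cytokines, at 2.14-fold (1.72 to 2.63) on 96 UMIs.

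Most markers of blood cells were at or near 0, apart from CD14 and CD3D. The 6 listed T and NK cell genes had 30 UMIs in all KRT14-high cells together, 27 of them from CD3D, and 4 of the 6, among them LCK and TRAC, were at 0. CD3D was seen in 12.0% of KRT14-high and 1.73% of the other cells, a value below the minimum of UMIs. The 3 listed B cell genes had 4 UMIs, and 3 of the 5 myeloid genes were at 0, while CD14 had 101 UMIs in 46 KRT14-high cells (27.7%, against 23.5% of the others) and was at 114 against 122 CPM, or 0.94-fold (0.76 to 1.14).

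Within the KRT14-high cells, the 68 cells with a CDH3 UMI and the 98 without were compared for a few of the named genes. AREG was at 2985 (2823 to 3155) CPM with and 3345 (3181 to 3516) without CDH3, and SFN at 1488 and 1706. IL7R was at 847 (762 to 940) with and 564 (497 to 636) without, and GPNMB at 23.7 (11.4 to 43.6) and 66.7 (45.3 to 94.7). The 15 KRT14-high cells without an ABCB1 UMI had AREG at 3212 (2758 to 3718) CPM, beside 3172 (3052 to 3295) in the 151 with one, AKR1C1 at 51370 beside 36866 and S100A4 at 1005 (759 to 1305) beside 471 (425 to 520). The KRT14-high cells with CDH3 also had more IL1B, at 10615 (10306 to 10930) against 9016 (8745 to 9293) CPM, more AKR1C1 and KRT17, and less S100A4, at 432 (371 to 499) against 570 (504 to 643). By CDH3 the intervals of these 4 genes and of AREG, IL7R and GPNMB did not overlap, while those of SFN, EDNRA and ABCG2 did. These intervals leave out the spread between cells, and 1 KRT14-high cell held 16.0% of the IL7R UMIs. By ABCB1 the intervals of AKR1C1 and S100A4 did not overlap, and those of AREG did. The 15 cells without an ABCB1 UMI held 56 S100A4 UMIs, so a few cells can set that value. By their summed UMIs, the cells with a CDH3 UMI were deeper on average than those without. The 15 cells without an ABCB1 UMI were shallower on average than the 151 with one. Both splits thus also sort cells by depth, and no difference between the groups is read from the intervals.

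Levels were also followed from cells without KRT14 to cells far above the cut, in 6219 cells with 0 KRT14 UMIs, 530 with 1, 117 with 2 to 4, 39 with 5 to 9, 51 with 10 to 19 and 76 with 20 or more. The genes followed were chosen for their difference at 5 UMIs or more, which bears on the steps into and within that range. All 18 higher genes were above the level of the 0 group in the cells with 2 to 4, beside 90 of all 193 measured genes. At 5 to 9 all 18 were higher than at 2 to 4, beside 81 of the 193, and at 20 or more 12 of the 18 were higher than at 5 to 9, beside 93 of the 193. AREG went from 522 CPM at 0 to 476, 1326, 1933, 4119 and 3125. AKR1C1 went from 10194 to 11931, 23014, 42860, 31347 and 39429, and thus did not rise further above the cut. KRT17 stayed near 4289 to 4703 up to 4 UMIs and was at 6414, 6752 and 11513 above, and so was highest in the cells richest in KRT14.

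Several lower genes stayed near the level of KRT14-free cells until the cut. S100A4 was at 2432, 2516 and 2438 CPM with 0, 1 and 2 to 4 KRT14 UMIs and at 569 (464 to 692), 729 (629 to 842) and 351 (299 to 411) above. IL6 was at 14675, 13616 and 12739 below the cut and at 5124, 3518 and 2727 above it. COL1A1 was at 1923, 1820 and 1730 and then at 812, 901 and 511. GPNMB, in contrast, was at 457 and 438 and already at 201 (166 to 241) with 2 to 4 UMIs, before 11.3, 58.5 and 53.1 above the cut. Of the 23 lower genes 3 were above the 0 group at 2 to 4 UMIs and none at 5 to 9, beside 90 and 78 of all 193 measured genes. The median depth per cell also differed between these groups, from 3748 UMIs at 0 to 5877.5 at 20 or more.

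**Figure D3:**
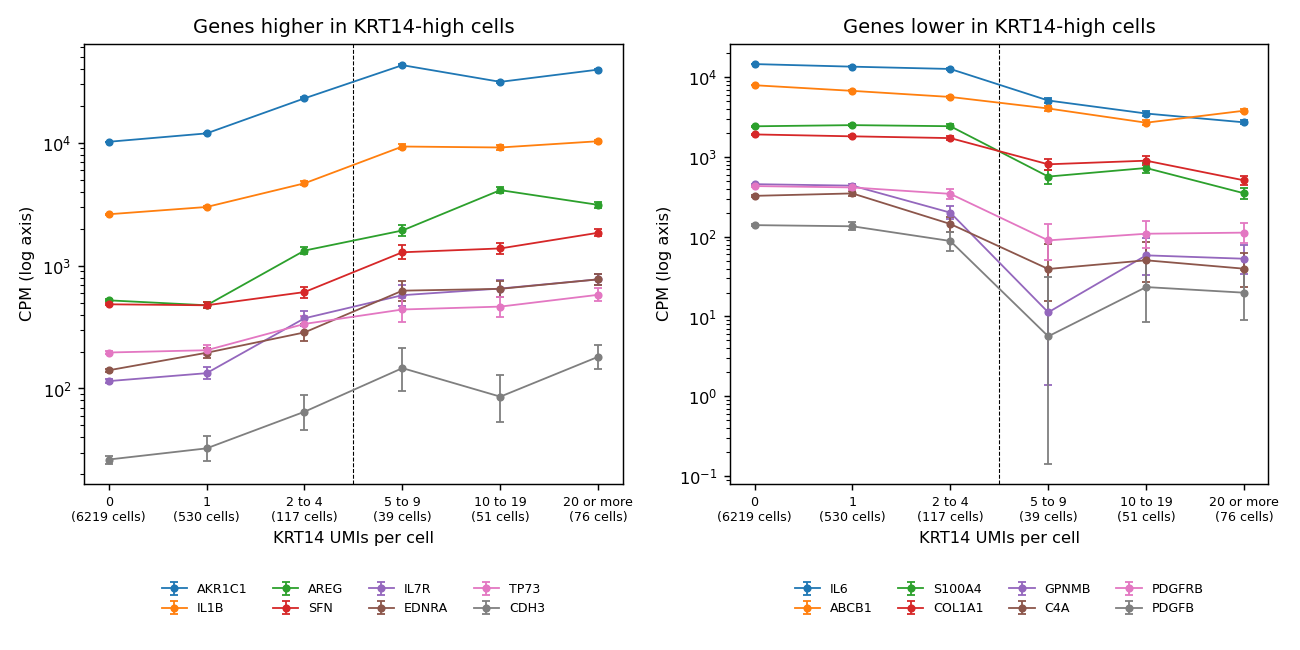
CPM (log axis) of 8 higher genes (left) and 8 lower genes (right) in cells grouped by KRT14 UMIs, with exact 95% Poisson intervals and the cut of 5 UMIs as a broken line. AREG and AKR1C1 are already higher at 2 to 4 UMIs, while S100A4, IL6 and COL1A1 stay near their level up to the cut.

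The same cut was then applied in the other 5 populations, in cells that had no part in choosing the genes above. In the 23 KRT14-high cells of doxorubicin-resistant spheroids, 127 genes could be measured, of which 9 (7.09%) were higher and 8 (6.30%) lower. Of 11 measured genes that were higher in the attached cells, all 11 were above 1-fold and 7 were called higher, among them AREG at 8.38-fold (6.82 to 10.2), SFN at 3.96-fold (3.35 to 4.65), IL7R at 2.88-fold (2.17 to 3.76), AKR1C1 at 2.27-fold (2.21 to 2.32), LPCAT1 and ARG2. Of 14 measured lower genes 13 were below 1-fold and 7 were called lower, among them GPNMB at 6.44-fold (4.17 to 10.5), COL1A1 at 3.26-fold (2.67 to 4.02), PDGFRB at 2.93-fold (2.04 to 4.37) and IL6 at 2.81-fold (2.42 to 3.27). For comparison, 55.1% of the 127 genes were above 1-fold. The minimum of UMIs held here too, so a gene expected below it counted as measured only if it was above 1-fold. Higher genes of the attached cells that are not among the 11 did not meet it. How many of the 11 met the minimum only through their observed UMIs was not counted. The direction of all 11 is therefore in part set by the minimum and is not read as a test. These 23 cells were deeper than the rest, with a median of 5244 against 2329 UMIs, and with the same number of cells chosen by KRT14 UMIs per other UMI 3 genes were higher and 3 lower.

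The 2 doxorubicin-resistant cultures did not match in every gene. IL1B and PTGS2 were at 1.11-fold (1.00 to 1.23) and 1.17-fold (1.02 to 1.35) in the spheroids, and S100A4 and COL3A1 at 0.78-fold (0.73 to 0.83) and 1.10-fold (0.92 to 1.31). KRT5 was higher in the KRT14-high cells of both cultures, in the attached ones at 11.2-fold (4.33 to 26.0) on 8 UMIs, under the minimum. In the 23 spheroid cells it had 172 UMIs and was 43.3-fold (35.9 to 52.0) higher than in the other spheroid cells. How these KRT5 UMIs were spread over the 23 cells was not examined, and 1 of these cells held 187 of their 515 KRT14 UMIs. Across the 125 genes measured in both, the log2 folds had a Pearson r of 0.69 and a Spearman rho of 0.60, given as a description across genes, which are not independent and share a panel.

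In treatment-naïve attached cells, with 1975 KRT14-high cells, 8 (3.43%) of 233 measured genes were higher and 12 (5.15%) lower. Of the 18 genes higher in the doxorubicin-resistant cells 4 were called higher there, CDH3 at 3.44-fold (3.17 to 3.73), AREG at 2.68-fold (2.63 to 2.73), KRT17 at 2.51-fold (2.49 to 2.53) and SFN at 2.07-fold (1.96 to 2.18). AKR1C1, at 1.17-fold (1.16 to 1.17), IL1B, at 1.03-fold (1.02 to 1.04), and EDNRA, at 1.03-fold (0.99 to 1.06), were nearly even. Of 22 measured lower genes 5 were called lower, COL3A1 at 7.50-fold (7.25 to 7.77), PDGFRB at 3.18-fold (3.02 to 3.36), S100A4 at 3.01-fold (2.92 to 3.10), IL6 at 2.07-fold (2.03 to 2.11) and COL1A1 at 2.01-fold (1.97 to 2.05). With the same number of cells chosen by KRT14 UMIs per other UMI, 30 genes were lower in place of 12, and the median depth was 4076 UMIs in the KRT14-high and 3489.5 in the other treatment-naïve cells. Differences between the folds of the populations were not tested.

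In treatment-naïve spheroids, with 531 KRT14-high cells, 16 (7.44%) of 215 genes were higher and 22 (10.2%) lower. The genes shared with the doxorubicin-resistant attached cells were AREG at 6.58-fold (5.99 to 7.23), KRT17 at 6.20-fold (6.15 to 6.25), SFN at 4.68-fold (4.35 to 5.04), CDH3 at 4.48-fold (4.14 to 4.84), IL7R at 3.11-fold (2.81 to 3.43) and TP73 at 2.92-fold (2.68 to 3.17), 6 of 18, and 10 of 22 on the lower side. PTGS2 was lower there, at 0.44-fold (0.43 to 0.45), and KRT5 35.6-fold (32.6 to 38.9) higher. The KRT14-high cells had a median of 3868 UMIs against 1221 in the others, and chosen by KRT14 UMIs per other UMI 34 genes were lower in place of 22. The paclitaxel-resistant cells held 16 attached and 8 spheroid KRT14-high cells. In the attached ones 1 (0.870%) of 115 genes was higher, IL1B at 3.56-fold (3.10 to 4.06), and none lower, with AKR1C1 at 0.85-fold (0.80 to 0.91). In the 8 spheroid cells, which had a median of 355.5 UMIs against 1630 in the others, 2 (6.06%) of 33 genes were higher, among them KRT17 at 6.15-fold (5.64 to 6.69), and 4 (12.1%) lower, among them S100A4 at 2.08-fold (1.78 to 2.45). AREG, CDH3, KRT17 and SFN accordingly passed the rule in both treatment-naïve populations and in the doxorubicin-resistant attached cells.

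**Figure D4:**
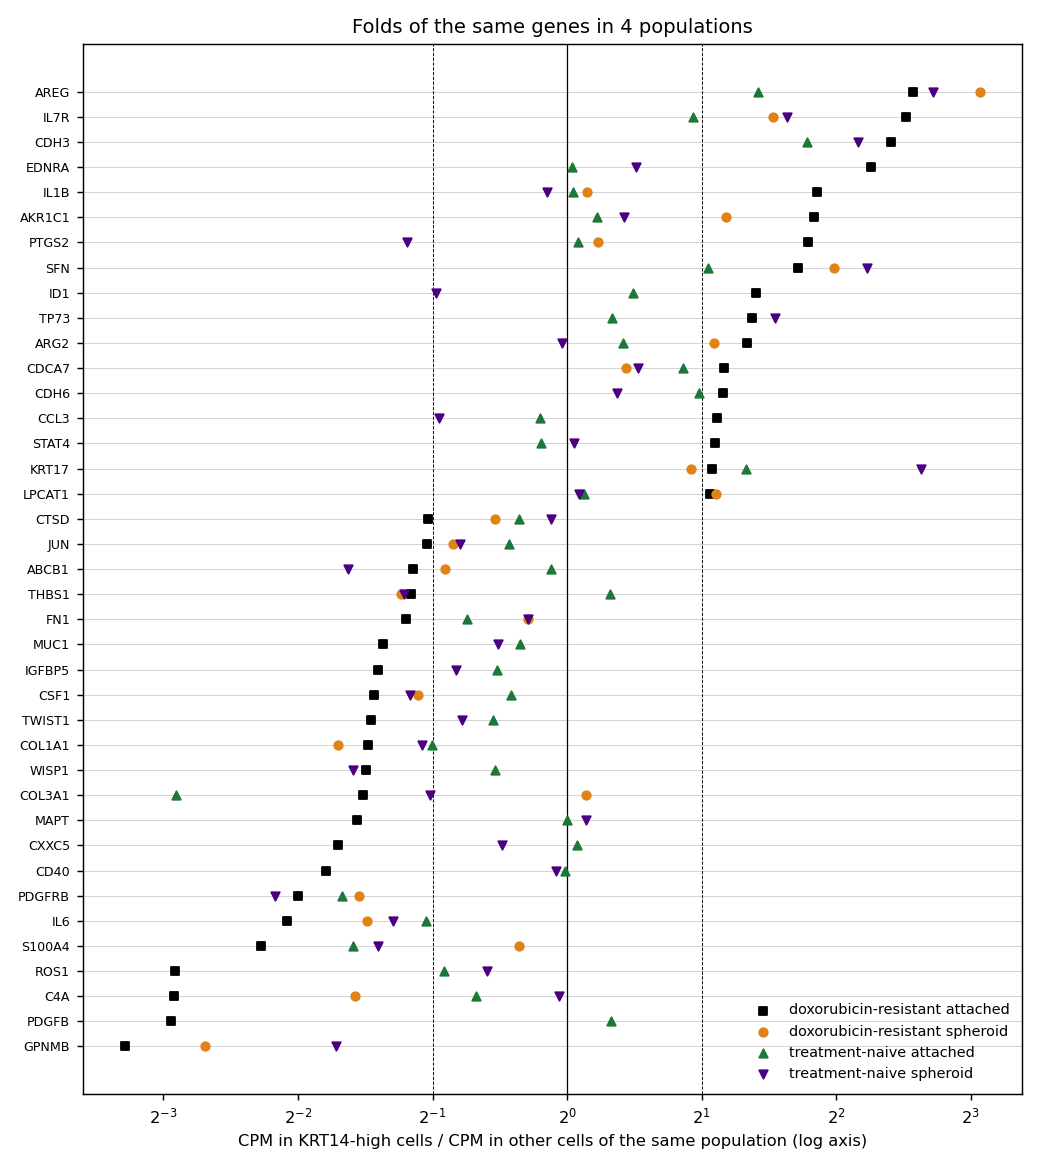
Fold of CPM between KRT14-high and other cells (log axis) of 39 of the 41 genes called in doxorubicin-resistant attached cells (black), beside the folds in doxorubicin-resistant spheroids (orange) and treatment-naïve attached (green) and spheroid cells (purple), where measured. AREG is above 2-fold in all 4, while AKR1C1 passes 2-fold in both doxorubicin-resistant populations and in neither treatment-naïve one.

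Treatment-naïve and doxorubicin-resistant cells shared the attached cartridge, and genes that differ between them were therefore examined in the KRT14-high cells. IGFBP3, a binding protein of insulin-like growth factors, was at 24.8 (15.6 to 37.6) CPM in the KRT14-high doxorubicin-resistant cells, 20.5 in the other doxorubicin-resistant cells and 2833 in all treatment-naïve attached cells, and thus 114-fold (75.4 to 182) lower than in the treatment-naïve cells. S100A9, a calprotectin subunit, was at 38.4 (26.6 to 53.6), 57.3 and 4399 CPM, and 115-fold (82.0 to 166) lower. ALDH1A1, an aldehyde dehydrogenase, had 2 UMIs in the 166 cells and was 44.0-fold (12.2 to 363) lower. IGFBP3 and S100A9 thus stood near the doxorubicin-resistant level. ALDH1A1, at 2.26 against 0.315 CPM in the other doxorubicin-resistant cells, was at 7.16-fold (0.75 to 34.6), which 2 UMIs leave undecided. CXCL12, a chemokine gene, and MME, the neprilysin gene, both with few UMIs, were at 12.4 against 4.69 CPM, or 2.65-fold (1.29 to 4.89), and at 29.3 against 16.1 CPM, or 1.82-fold (1.18 to 2.70), relative to the other doxorubicin-resistant cells.

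Most genes low in treatment-naïve cells were far above the treatment-naïve level and below that of the other doxorubicin-resistant cells. Against the latter 6 of the 7 measured were under 1-fold, with a median log2 fold of -0.46. The exception was ESM1, at 340 against 211 CPM, or 1.61-fold (1.43 to 1.81). ABCB1 was 24.1-fold (23.0 to 25.4) higher in the KRT14-high doxorubicin-resistant cells than in all treatment-naïve cells, ABCG2 7.92-fold (7.33 to 8.55), the adhesion molecule gene NCAM1 29.6-fold (23.4 to 37.7), the chemokine gene CXCL14 48.2-fold (38.7 to 60.2) and ESM1, an endothelial proteoglycan gene, 24.0-fold (20.4 to 28.3). PDGFB, at 18.1 (10.3 to 29.3) CPM, was 1.89-fold (1.06 to 3.14) above the treatment-naïve level of 9.56, and GPNMB, at 46.3 (33.2 to 62.8), lay between the treatment-naïve 4.17 and 450 in the other doxorubicin-resistant cells. Of the list of genes high in treatment-naïve cells 1 of 3 measured members, PTGS2, was higher in KRT14-high than in other doxorubicin-resistant cells, and FCRLA was at 1.79-fold (1.45 to 2.18). Of the list of genes low there 3 of 7 were lower (GPNMB, PDGFB and ABCB1) and 0 higher. These lists were drawn from the same libraries.

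At least 1 UMI of IGFBP3, S100A9 or ALDH1A1 was found in 40 of the KRT14-high cells. Without all cells that had one, 18 genes were higher, the same 18, and 25 were lower, with 22 of the 23 shared (ROS1 fell under the minimum). Cells were not left out for other genes high in treatment-naïve cells, such as PTGS2 and FCRLA. The part of treatment-naïve cells in the group through wrong tags or free RNA was otherwise not tested.

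**Figure D5:**
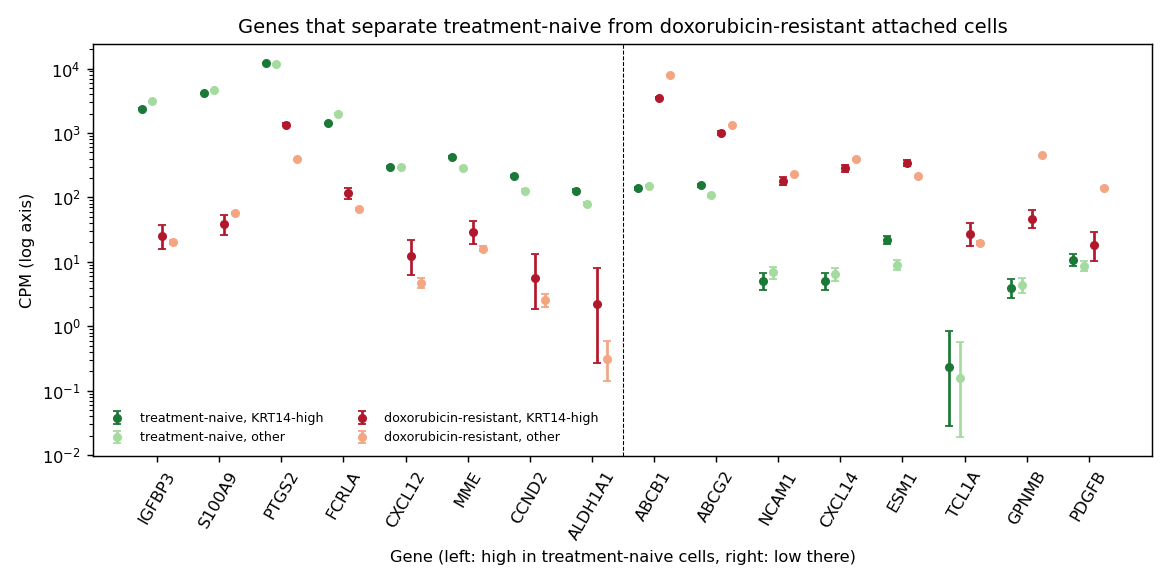
CPM (log axis, exact 95% Poisson intervals) of 8 genes high (left) and 8 genes low (right) in treatment-naïve attached cells, in KRT14-high and other cells of the treatment-naïve (green) and doxorubicin-resistant (red) populations. IGFBP3 and S100A9 lie at 24.8 and 38.4 CPM in KRT14-high doxorubicin-resistant cells, against 2833 and 4399 in all treatment-naïve cells. PTGS2, at 1347 against 389 CPM, and FCRLA lie above the other doxorubicin-resistant cells and below the treatment-naïve level. So do CXCL12, MME, CCND2 and ALDH1A1, each on few UMIs.

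Set beside the KRT14-high cells of the treatment-naïve attached population, the doxorubicin-resistant ones differed in both directions. AREG was at 3174 CPM against 4067, CDH3 at 147 against 225, SFN at 1602 against 384 and KRT17 at 9115 against 19516. IL7R was at 698 against 293, AKR1C1 at 37778 against 15878, CDCA7 at 1941 against 204 and CDH6 at 949 against 170. IL1B, at 9776 against 24570, and PTGS2, at 1347 against 12248, were lower than in the treatment-naïve KRT14-high cells, although both were higher than in the other doxorubicin-resistant cells.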

How the data were processed

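SUM159 cells were profiled with the BD Rhapsody Onco-BC panel in 2 samples of 3 tagged populations each. Per the labels the reads were referred to hg38, and the authors found cell labels and UMIs on a cloud platform, adjusted UMIs for sequencing errors (RSEC) and deposited UMI counts per gene and cell. No pipeline version is given in the sources used here. The 3 populations of a sample were told apart by the names of their matrices. The deposited UMI counts were used without filtering cells, and doublets were not called. The paper, in contrast, went on with fewer attached cells after its quality control. All shares given here as deposited are over all barcodes, with doxorubicin-resistant spheroid cells down to 56 UMIs.

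UMIs were summed per gene over the 166 KRT14-high and the 6866 other cells and divided by totals without KRT14. Folds have exact conditional binomial intervals, CPM exact Poisson intervals and shares Clopper-Pearson intervals, all of 95% and for counting error only, since 1 matrix per population allows no test across samples. Interval coverage was checked on simulated data. The members and the 18 gene lists were chosen with earlier results of these data known. Named were the 15 largest folds each way, the markers KRT14, CDH3, AREG and AKR1C1, 2 measured members at each end of every list, and ABCB1 and ABCG2. Every other gene in the text, among them KRT17, STAT4, LPCAT1, FN1, THBS1, JUN and CTSD, was chosen after its values were seen. For the gene comparison 12 alternatives were planned and 2 added after seeing the data, among them depth weighting in 20 bins and cuts of 3 and 10 UMIs. Shares were also given with every cell thinned to 1000 UMIs. Promoter windows came from RefSeq GRCh38.p14, and gene positions are of GRCh38. Python 3.11.15, numpy 2.4.6, scipy 1.17.1, pandas 2.3.3 and matplotlib 3.10.9 were used. A few genes are not reported here.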

Additional observations from a re-analysis of the deposited data

Results flagged for a closer look

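PTGS2, the inducible cyclooxygenase gene, differed in direction between populations at the same KRT14 cut. Its CPM in KRT14-high cells was 3.47 times that of the other cells in doxorubicin-resistant attached cells and 0.439 times that of the other cells in treatment-naïve spheroids. It was at 1.06-fold in treatment-naïve attached cells and 1.17-fold in doxorubicin-resistant spheroids. The difference between the populations was not tested, since none was replicated.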

How the results depend on the processing

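No paired analysis was possible because no population was replicated, and for the same reason no replicate could be left out. With the 5 most abundant genes left out of the totals 11 genes were higher in KRT14-high doxorubicin-resistant attached cells, and 7 genes, among them CCL3, CDCA7, CDH6, KRT17, LPCAT1 and STAT4, came to lie under 2-fold, between 1.85 and 1.99. With no minimum of UMIs 41 genes were higher and 41 lower, in place of 18 and 23. Under the other 12 alternatives, the 2 added ones included, 16 to 21 genes were higher and 19 to 28 lower, with 15 to 18 of the 18 and 19 to 23 of the 23 shared. No called gene changed direction under any of the alternatives. The basal list had 3 to 5 higher members and the mesenchymal list 7 lower members under these alternatives, and the luminal list up to 3 in each direction. The share of KRT14-high cells was 1.05% with cells thinned to 1000 UMIs and 11.6% at a cut of 1 UMI. With the same share of cells chosen by KRT14 UMIs per other UMI, 2 genes were higher in paclitaxel-resistant attached cells, 30 were lower in treatment-naïve attached cells and 34 in treatment-naïve spheroids, and 3 were higher and 3 lower in doxorubicin-resistant spheroids. The cause of these shifts was not tested. With 166 cells, a gene under 50 observed or expected UMIs cannot be placed.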
